A study of Mus musculus with 6 samples.

Results

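The CCAAT/enhancer-binding proteins (C/EBPs) were followed in 3 culture media. The recipient cells were an FRC line from the mouse, FRC standing for fibroblastic reticular cell, the fibroblast of the lymph node. The set was chosen by gene name and held 6 of the 55367 gene symbols of the count table: Cebpa, Cebpb, Cebpd, Cebpe, Cebpg and Cebpz. Counts were found for 5 of them, and the same 5 passed the filter on low counts. Cebpe had no count in any library.

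Poly(A) RNA was sequenced from 6 libraries, 2 per medium, after FRCs had been kept for 96 h in conditioned medium that was renewed every 48 h. The control group received medium conditioned by the FRC line itself, and the other groups received medium conditioned by 67NR or by 4T1 cells. Both are mammary tumour lines derived from the same mouse tumour, and 4T1 is known to form metastases where 67NR does not. Every medium had been on its cells for 24 h in plain RPMI and was then supplemented with 2% serum and antibiotics. All recipients were the same FRC line, for which the labels give no strain or genotype, and no group had unconditioned medium. Signals from tumour cells, the loss of signals from FRCs and the exhaustion of the medium by the donor cells cannot be told apart. Whether the 2 libraries of a medium came from separate cultures is not stated in the labels. All p-values thus speak only of the spread between these libraries, which may be technical.

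Libraries held 13581510 to 21797578 counts, and 15055 genes were tested. Levels are given as CPM, counts scaled to a common library total, on which scale 1 count was worth 0.0463 to 0.0743. Across genes, Pearson's r of log2 CPM was at least 0.992 within a medium and at most 0.979 between media. Of 12 FRC markers, Ccl19, Ccl21a and Thy1 were at 0 in every library, while Pdpn and Pdgfra were present at 124 and 33.7 CPM in control medium. Bst1, Icam1 and Il7 were near the floor, at no more than 0.0743, 0.363 and 1.63 CPM in any library. Pdgfrb, Vcam1, Ltbr and Col1a1 were at 370, 206, 107 and 13817 CPM in control medium. The summed FRC markers lay at 14364 to 14957 CPM in control medium, 15799 to 16610 CPM in 67NR medium and 7892 to 8385 CPM in 4T1 medium, and most of each sum was Col1a1. Without Col1a1 the sums were 829 to 858, 974 to 997 and 1175 to 1281 CPM. In 4T1 medium against control, where 19.9% of genes were higher and 19.2% lower, 3 of 7 FRC markers tested were higher and 3 lower. The part of this in the results was not tested. Summed leukocyte markers reached at most 10.2 CPM and summed epithelial markers at most 8.57 CPM in any library, with Cd3e, Adgre1, Tyrobp, S100a8, Epcam, Cldn4 and Esrp1 at 0. Endothelial markers summed to 14.0 to 16.1, 23.6 to 26.6 and 34.2 to 35.7 CPM in control, 67NR and 4T1 medium, with Prox1 and Cldn5 at 0. These sums were mostly Emcn, without which they were 2.34 to 3.57, 3.31 to 3.71 and 0.763 to 1.01 CPM, and Kdr and Tek were lower in 4T1 medium than in control. Their part in any result was not tested either. In bulk RNA, fewer cells of a kind and less RNA per cell cannot be told apart.

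C/EBP proteins carry a basic leucine zipper, by which they pair with each other or with relatives such as ATF4 and bind DNA. C/EBP beta and delta are known for switching on acute-phase genes in response to interleukin 6, interleukin 1 and Toll-like receptor signals, and they precede C/EBP alpha in the making of fat cells. C/EBP alpha and epsilon act in the granulocyte lineage, and C/EBP gamma, which lacks an activation domain of its own, is a partner of ATF4 in the response to amino acid shortage. Cebpz shares the name but encodes no leucine zipper protein: it is known as a CCAAT-binding factor whose yeast relative works in early ribosome assembly.

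Cebpb was 4.95-fold and Cebpd 3.84-fold higher in 4T1 medium than in control medium, and against 67NR medium they were 4.44-fold and 4.78-fold higher. The other members moved by smaller amounts: Cebpa was highest in 67NR medium, and Cebpd and Cebpz were lowest there. Against control, 2 members were higher and 0 lower in 4T1 medium by the edgeR quasi-likelihood test, where 19.9% of all genes tested were called higher and 19.2% lower. At an unadjusted p under 0.05 the counts were 3 higher and 0 lower, and DESeq2 and limma-voom each called 2 higher and 0 lower. The shares over all genes are those of edgeR at an adjusted p under 0.05 and do not apply to these counts. In 67NR medium against control, 1 member was higher and 2 were lower, where 13% of genes were called higher and 14.6% lower. Between the tumour media, 4 members were higher and 1 lower in 4T1 medium, where 23.5% of genes were called higher and 19.9% lower. The 3 comparisons share libraries, so their values stand side by side and were not set against each other.

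**Figure D1:**
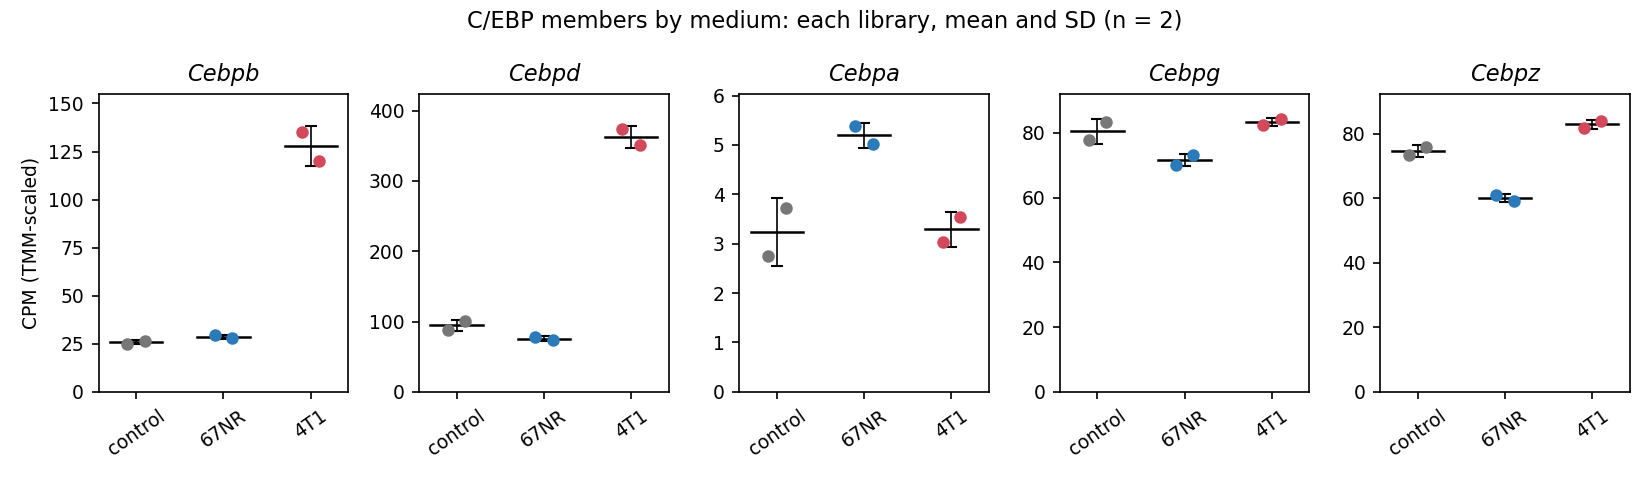
Level of each C/EBP member with counts in TMM-scaled CPM (vertical axis from 0, own scale per gene) in control, 67NR and 4T1 medium; points are libraries, bars the mean and SD of 2. Cebpb and Cebpd stand apart in 4T1 medium (128 and 362 CPM on average), Cebpa is highest in 67NR medium (5.19 CPM), and Cebpg and Cebpz are lowest there.

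Cebpb, the gene of C/EBP beta, is a single exon of 1504 bases on the plus strand (GRCm38 chromosome 2, 167688915 to 167690418, GENCODE M21). Its promoter, chr2:167688665-167688914 on the plus strand (RefSeq, GRCm38.p6), is shown because this member changed most in 4T1 medium against control. It is GC-rich, with 80.7% G or C in the 300 bases around the start against a median of 52.7% over 32851 such windows.

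Cebpb promoter: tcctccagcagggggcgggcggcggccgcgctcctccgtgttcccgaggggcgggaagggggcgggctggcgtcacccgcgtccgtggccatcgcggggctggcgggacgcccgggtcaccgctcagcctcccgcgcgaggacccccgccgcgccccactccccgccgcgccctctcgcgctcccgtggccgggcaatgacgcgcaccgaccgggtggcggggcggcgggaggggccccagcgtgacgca

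None of 7 motifs searched on both strands was found in the 300-base windows of Cebpb and Cebpa. Cebpd, Cebpe and Cebpz had no matched window and were not searched. The motifs, which were searched one by one and may overlap each other, were a C/EBP core (TTGCNNAA, in 10.8% of all windows), a STAT site (TTCNNNGAA, 8.3%), a kappaB site (in 1.63%), a C/EBP-ATF composite (TTGCATCA, 0.895%), a CRE (TGACGTCA, 1.79%), an AP-1 site (TGANTCA, 7.81%) and a CCAAT box (CCAAT, 37.4%). The absence says only that these letters are not in these windows.

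Cebpb was counted at 25.0 and 26.6 CPM in control replicates 1 and 2, at 29.4 and 28.0 CPM in 67NR medium and at 135 and 120 CPM in 4T1 medium. Both 4T1 libraries lay far above the other 4. The means were 25.8 ± 1.12, 28.7 ± 0.949 and 128 ± 10.4 CPM (SD, n = 2). Against control, the log2 fold change in 4T1 medium was 2.31 (SE 0.08, edgeR adjusted p = 2.94e-10), a 4.95-fold rise that 269 of the 15055 genes tested, or 1.79%, exceeded. Against 67NR medium it was 2.15 (SE 0.08, edgeR adjusted p = 4.20e-10). In 67NR medium against control the log2 fold change was 0.16, with a 95% interval from -0.04 to 0.35 and edgeR adjusted p = 0.22, although the 2 groups did not overlap. Both calls in 4T1 medium held under all 14 alternatives of scaling, filter, test and libraries.

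An exon of the opposite-strand gene Tmem189 shares 312 bases with Cebpb, 20.7% of its exon. The libraries were directional, but the strand setting of the counting is not given in the sources used here. Reads of the shared bases therefore cannot be told apart. Tmem189 was at 19.9 ± 0.154, 17.3 ± 1.81 and 20.8 ± 1.83 CPM in control, 67NR and 4T1 medium and was called in no comparison. Its log2 fold change in 4T1 medium against control was 0.07 (edgeR adjusted p = 0.663), beside 2.31 for Cebpb.

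Cebpd encodes C/EBP delta, an acute-phase member known to be induced through STAT3. It is a single exon of 3746 bases on the plus strand of chromosome 16 (15887286 to 15891031). Its level was 88.7 and 100.4 CPM in the control libraries, 78.2 and 73.4 CPM in 67NR medium and 373 and 351 CPM in 4T1 medium. The 3 groups did not overlap, with 67NR lowest and 4T1 highest. The means were 94.5 ± 8.30, 75.8 ± 3.41 and 362 ± 15.3 CPM. The log2 fold change in 4T1 medium was 1.94 against control (SE 0.08, edgeR adjusted p = 5.76e-10) and 2.26 against 67NR (SE 0.08, edgeR adjusted p = 1.36e-10). The rise over control was exceeded by 344 genes, 2.28% of those tested, and both calls held under all 14 alternatives.

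In 67NR medium Cebpd was lower than in control, by 0.32 on the log2 scale in size (log2 fold change -0.32, SE 0.08, edgeR adjusted p = 0.00833). This call was lost without control replicate 2 (log2 fold change -0.23, edgeR adjusted p = 0.122) and without 67NR replicate 2 (-0.27, edgeR adjusted p = 0.106). A fit that leaves a medium with 1 library assumes that this library varies like the others.

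Spidr, a DNA repair scaffold gene on the opposite strand, shares 562 exon bases with Cebpd, 15% of its exon length. Spidr was at 38.5 and 38.3 CPM in control medium, 38.5 and 35.5 CPM in 67NR medium and 108 and 112 CPM in 4T1 medium. It rose with Cebpd in 4T1 medium, with a log2 fold change of 1.51 against control (SE 0.07, edgeR adjusted p = 4.76e-09), and was not called between 67NR and control (log2 fold change -0.05, edgeR adjusted p = 0.655). The ratio of Cebpd to Spidr CPM was 2.30 and 2.62 in control medium, 2.03 and 2.07 in 67NR medium and 3.46 and 3.14 in 4T1 medium. The part of shared reads in either rise was not tested.

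**Figure D2:**
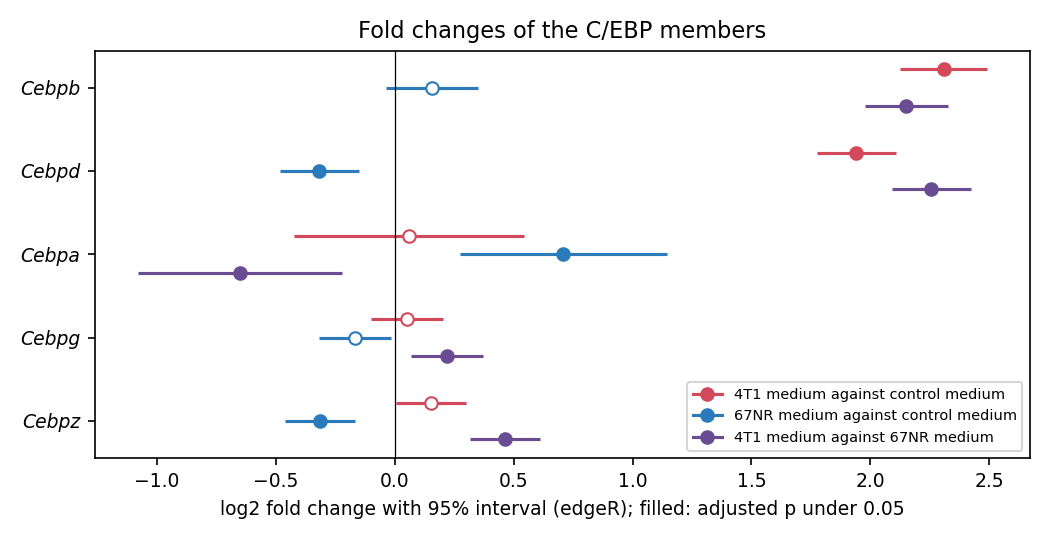
Log2 fold change of each C/EBP member with its 95% interval (horizontal axis, edgeR fit of 6 libraries) in 4T1 against control, 67NR against control and 4T1 against 67NR medium; filled points passed an adjusted p of 0.05. Cebpb and Cebpd lie near 2 in both comparisons with 4T1 medium (1.94 to 2.31), and all other points lie between -0.65 and 0.71.

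Cebpa encodes C/EBP alpha, the member tied to the mature fat cell and to granulocytes, and was the scarcest of those detected. The gene is a single exon of 2636 bases on chromosome 7 (35119293 to 35121928, plus strand). It had 53 and 50 counts in the control libraries, 116 and 103 in 67NR medium and 45 and 65 in 4T1 medium. These correspond to 2.75 and 3.72 CPM, 5.37 and 5.01 CPM, and 3.04 and 3.54 CPM. Both 67NR libraries were above the other 4, while control and 4T1 overlapped. Pooled per medium, the exact Poisson 95% intervals were 84.1 to 125 counts in control medium, 191 to 250 in 67NR medium and 90.4 to 133 in 4T1 medium, and cover counting error only.

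The log2 fold change of Cebpa was 0.71 in 67NR medium against control (SE 0.20, edgeR adjusted p = 0.0192) and -0.65 in 4T1 against 67NR medium (SE 0.20, edgeR adjusted p = 0.018). Between 4T1 and control medium it was 0.06, with a 95% interval from -0.42 to 0.54. The rise in 67NR medium was lost without control replicate 1 (log2 fold change 0.48, edgeR adjusted p = 0.208), without 67NR replicate 1 (0.66, edgeR adjusted p = 0.119) and without 67NR replicate 2 (0.76, edgeR adjusted p = 0.0656). DESeq2 did not call it either (log2 fold change 0.70, adjusted p = 0.0979). The fall in 4T1 against 67NR medium was lost without either 67NR library (edgeR adjusted p = 0.0997 and 0.0535 for replicates 1 and 2), without 4T1 replicate 1 (0.0762) and with DESeq2 (0.0784).

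Cebpg encodes C/EBP gamma, the broadly expressed partner of ATF4. It lies on the minus strand of chromosome 7 (35046422 to 35056573) with 5621 exon bases. Its promoter, chr7:35056567-35056816 on the minus strand (RefSeq, GRCm38.p6), is shown because it held the one motif found among the 3 members with a matched window. This was a CCAAT box on the opposite strand, in capitals, starting 89 and again 28 bases before the start of the gene.

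Cebpg promoter: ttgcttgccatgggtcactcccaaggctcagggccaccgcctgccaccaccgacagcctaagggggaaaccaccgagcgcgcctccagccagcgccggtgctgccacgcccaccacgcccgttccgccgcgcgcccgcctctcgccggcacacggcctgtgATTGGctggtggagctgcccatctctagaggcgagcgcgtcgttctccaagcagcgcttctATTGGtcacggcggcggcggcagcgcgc

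Cebpg stood at 77.8 and 83.2 CPM in control medium, 70.2 and 73.0 CPM in 67NR medium and 82.6 and 84.3 CPM in 4T1 medium. The 67NR libraries were lowest, and the control and 4T1 libraries overlapped. The log2 fold change in 4T1 medium against control was 0.05 (95% interval -0.10 to 0.20, edgeR adjusted p = 0.58), an interval that lies below the change of Cebpb. In 67NR medium against control it was -0.17 (edgeR adjusted p = 0.0937), and it was called lower there without 4T1 replicate 1 (edgeR adjusted p = 0.0378), without 4T1 replicate 2 (0.0366) and in a fit of these 2 media alone (0.0418). In 4T1 against 67NR medium it was 0.22 (SE 0.07, edgeR adjusted p = 0.0201), a call that was lost without 67NR replicate 1 (edgeR adjusted p = 0.16), without 67NR replicate 2 (0.0735), in a fit of these 2 media alone (0.0582) and with DESeq2 (0.0888).

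Cebpz has 4658 exon bases in 16 exon blocks on the minus strand of chromosome 17 (78919006 to 78937066). It was measured at 73.4 and 76.1 CPM in control medium, 61.0 and 59.2 CPM in 67NR medium and 81.9 and 84.0 CPM in 4T1 medium. The 3 groups were in this order without overlap, 67NR lowest and 4T1 highest. The log2 fold change was -0.31 in 67NR medium against control (SE 0.07, edgeR adjusted p = 0.00418) and 0.47 in 4T1 against 67NR medium (SE 0.07, edgeR adjusted p = 0.000101). Against control the value in 4T1 medium was 0.15 (95% interval 0.00 to 0.30, edgeR adjusted p = 0.0964). The lower level in 67NR medium was no longer called without control replicate 2 (edgeR adjusted p = 0.0538) or 67NR replicate 2 (0.0621), whereas the difference between the tumour media held under all 14 alternatives. The opposite-strand neighbour Cebpzos, which shares 171 exon bases (3.67%), was called in no comparison.

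Cebpe, the granulocyte member, lies on the minus strand of chromosome 14 (54710360 to 54712174). Its count of 0 in all 6 libraries was taken to allow up to 3 counts per medium (the exact Poisson 95% interval reaches 3.69 counts), and 3 counts are 0.0917 CPM in control medium, 0.0712 CPM in 67NR medium and 0.0905 CPM in 4T1 medium. No fold was computed for it.

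Levels of different genes were compared as CPM per kilobase of GENCODE exon, and the place of Cebpd depends on that length. In control medium the order was Cebpd at 25.2 ± 2.22, Cebpb at 17.2 ± 0.744, Cebpz at 16.0 ± 0.409, Cebpg at 14.3 ± 0.688 and Cebpa at 1.23 ± 0.259 CPM per kilobase (SD, n = 2). The means of Cebpb and Cebpz lay within the sum of their SDs. In 67NR medium Cebpd at 20.2 ± 0.909 and Cebpb at 19.1 ± 0.631 could not be separated by that measure, nor could Cebpz at 12.9 ± 0.279 and Cebpg at 12.7 ± 0.353. With the shorter RefSeq length of Cebpd, 2260 bases, the pair was apart in every medium: Cebpd was at 41.8 ± 3.67, 33.5 ± 1.51 and 160 ± 6.78 CPM per kilobase in control, 67NR and 4T1 medium, and Cebpb at 17.0 ± 0.738, 18.9 ± 0.625 and 84.1 ± 6.83. In 4T1 medium Cebpd reached 96.7 ± 4.09 and Cebpb 84.9 ± 6.89 CPM per kilobase, while Cebpz, Cebpg and Cebpa stayed at 17.8, 14.8 and 1.25. Of 14747 tested genes with a length, 16.4% were above Cebpd and 23.2% above Cebpb in control medium, against 4.38% and 4.94% in 4T1 medium. With RefSeq lengths for these members, 10.0% were above Cebpd in control and 2.72% in 4T1 medium.

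The leucine zipper members together summed to 58.0 ± 3.91 CPM per kilobase in control medium, 54.0 ± 1.28 in 67NR medium and 198 ± 10.6 in 4T1 medium, 3.41-fold the control level in the last. In control medium Cebpd made up 43.5%, Cebpb 29.6%, Cebpg 24.7% and Cebpa 2.11% of the sum. In 67NR medium the shares were 37.4, 35.3, 23.6 and 3.65%, and in 4T1 medium 48.9, 42.9, 7.52 and 0.634%. The level of Cebpg itself was 14.3 ± 0.688 CPM per kilobase in control and 14.8 ± 0.209 in 4T1 medium, so that its smaller share there went with the rise of Cebpb and Cebpd. The ratio of Cebpb to Cebpg CPM was 0.322 and 0.320 in control medium, 0.418 and 0.384 in 67NR medium and 1.63 and 1.43 in 4T1 medium.

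The ratio of Cebpd to Cebpb CPM was 3.54 and 3.77 in control medium, 2.66 and 2.62 in 67NR medium and 2.76 and 2.92 in 4T1 medium. The control libraries were highest, so that the mix of the pair moved toward Cebpb in both tumour media. These shares depend on gene length too: with RefSeq lengths Cebpd made up 56.2, 49.9 and 61.5% of the sum in control, 67NR and 4T1 medium, Cebpb 22.9, 28.2 and 32.3%, and the sum was 3.5-fold the control level in 4T1 medium.

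**Figure D3:**
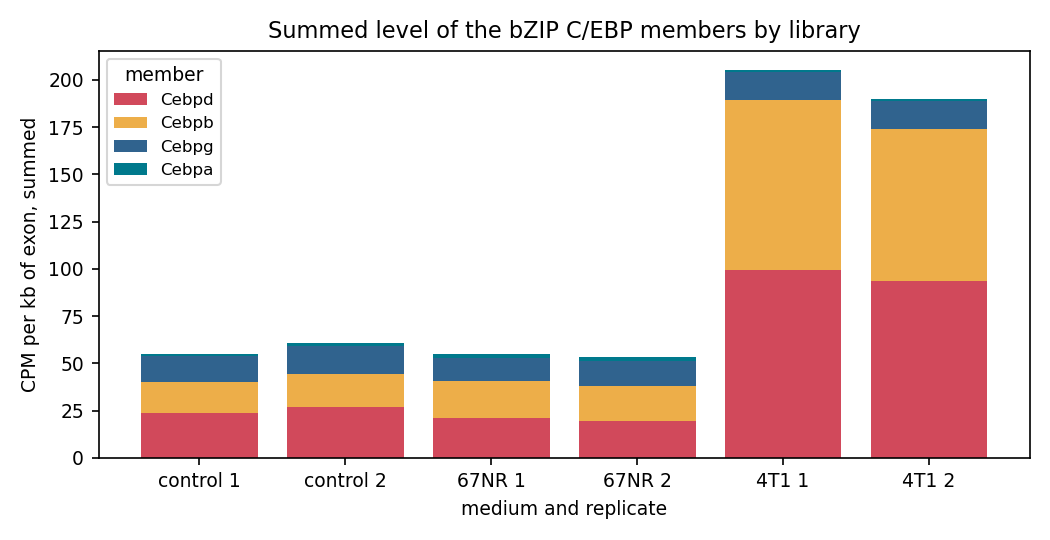
Summed level of the leucine zipper C/EBP genes in each library (vertical axis, CPM per kilobase of GENCODE exon), stacked by gene. The 2 libraries of 4T1 medium reach 205 and 190, where Cebpd and Cebpb fill most of the bar, and the other 4 lie between 53.1 and 60.7.

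Genes whose profile over the 6 libraries was most like that of a member were ranked by the root mean square difference of centred log2 CPM, among 9824 or 9825 genes with a mean of at least 10 CPM. All profiles share the same 6 libraries and their depth, so the ranking is a description. Nearest to Cebpb were Cxcl1, a neutrophil chemokine, at 0.105, Slco2a1, a prostaglandin transporter, and Lhfpl2, both at 0.129, Arid5a, an RNA-binding protein known to stabilise Il6 mRNA, at 0.140, and Sgk1, a serum- and glucocorticoid-induced kinase, at 0.142. Nearest to Cebpd were Smim3 at 0.0857, 1110008P14Rik at 0.113, Rdh10, a retinol dehydrogenase, at 0.160, Arid5a at 0.169 and Ier3, an immediate early gene, at 0.173. Arid5a stood on both lists. Cebpd ranked 13 for Cebpb and Cebpb ranked 10 for Cebpd, at a difference of 0.204.

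Cxcl1 went from 80.0 CPM in control and 91.1 in 67NR to 439 CPM in 4T1 medium (log2 fold change 2.45 against control, edgeR adjusted p = 2.52e-11). Smim3 followed the dip of Cebpd as well, with 21.3 CPM in control medium, 16.6 in 67NR medium and 81.5 in 4T1 medium. The genes nearest to Cebpa were Tle2, a Groucho corepressor, Isg20, Arhgap28, Htra3 and Prelp, at 0.0718 to 0.118. Each was called higher in 67NR medium against control and lower in 4T1 against 67NR medium. Tle2, for example, was at 23.5, 40.4 and 25.0 CPM in control, 67NR and 4T1 medium. Nearest to Cebpz were Naa50, an N-terminal acetyltransferase, AW209491, Mtfr1, Wdr18 and Hax1 at 0.0225 to 0.0304, and nearest to Cebpg were Pds5a, a cohesin regulator, Armc1, Grk6, Ppp2r5b and Lclat1 at 0.0217 to 0.0305. The small differences for Cebpz and Cebpg accompany small changes in the genes themselves.

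**Figure D4:**
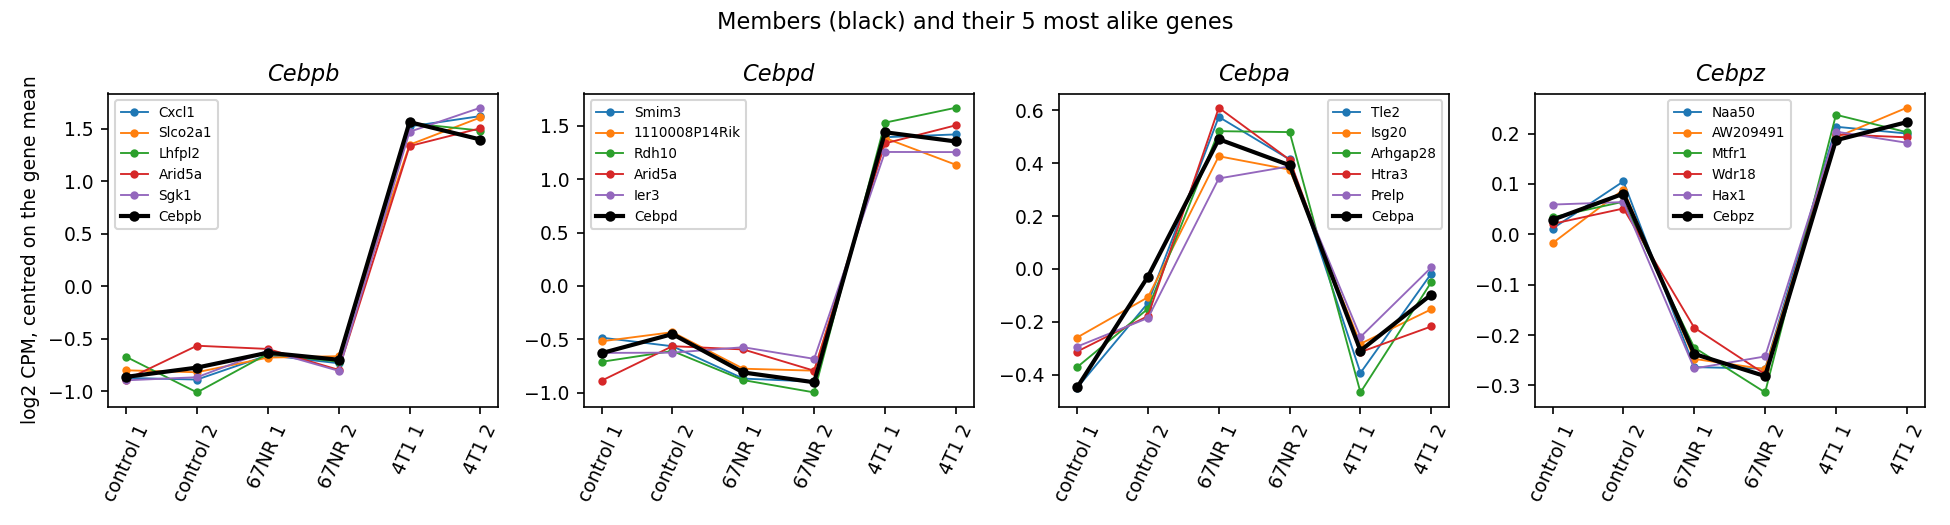
Log2 CPM centred on the mean of each gene (vertical axis, own scale per panel) in the 6 libraries (horizontal axis; lines only link the points of a gene) for Cebpb, Cebpd, Cebpa and Cebpz (black) and the 5 genes nearest to each. The genes near Cebpb and Cebpd rise in both 4T1 libraries, those near Cebpa are highest in both 67NR libraries, and those near Cebpz are lowest there.

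Leucine zipper partners and relatives of the C/EBPs made a list of 12, of which 8 were tested. In 4T1 medium against control, where 19.9% of all genes tested were called higher and 19.2% lower, 4 were higher and 2 lower. The median log2 fold change of the 8 was 0.41 against 0.01 over all genes tested. Atf3, a stress-induced repressor, was at 7.09 ± 0.268 CPM in control medium, 7.22 ± 0.117 in 67NR medium and 23.1 ± 1.21 in 4T1 medium. Ddit3, which encodes CHOP, a C/EBP relative that pairs with C/EBPs and keeps them from their usual sites, was at 55.9 ± 0.663, 64.2 ± 0.687 and 125 ± 18.1 CPM. Their log2 fold changes in 4T1 medium against control were 1.70 (SE 0.12, edgeR adjusted p = 1.18e-07) and 1.16 (SE 0.09, edgeR adjusted p = 4.65e-07). Nfil3, a repressor, rose by 0.88 and Atf4 by 0.49 on the log2 scale, while Jdp2 fell by 0.38 and Tef, a circadian activator, fell by 0.46. In 67NR medium 1 was higher (Tef, log2 fold change 0.34) and 1 lower (Atf4, log2 fold change -0.32), with a median of 0.08, where 13% of all genes were called higher and 14.6% lower. Neither call held without 67NR replicate 1 (edgeR adjusted p = 0.0592 for Tef and 0.0529 for Atf4), and 3 were higher without 4T1 replicate 1, without 4T1 replicate 2 or in a fit of these 2 media alone.

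The Tribbles pseudokinases, of which Trib1 and Trib2 bring C/EBP alpha to the COP1 ubiquitin ligase for breakdown, were all tested. All 3 rose in 4T1 medium against control and against 67NR medium, where 19.9% and 23.5% of all genes were called higher. Trib1 went from 52.3 ± 2.44 CPM in control and 50.1 ± 0.205 in 67NR to 166 ± 12.0 CPM in 4T1 medium (log2 fold change 1.67 against control, SE 0.08, edgeR adjusted p = 2.08e-09). Trib3 went from 107 ± 4.61 and 94.1 ± 5.05 to 260 ± 29.1 CPM (1.27), and Trib2 from 66.1 ± 0.00358 and 50.6 ± 0.249 to 95.3 ± 6.54 CPM (0.53). The median log2 fold change was 1.27 in 4T1 and -0.19 in 67NR medium against control, and Trib2 fell in the latter (log2 fold change -0.39, edgeR adjusted p = 0.00177). The Cebpa transcript itself did not separate 4T1 from control medium.

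Cytokines, receptors and transducers known to act upstream of Cebpb and Cebpd made a list of 26, of which 24 were tested. In 4T1 medium against control, where 19.9% of all genes tested were called higher and 19.2% lower, 18 were higher and 1 lower. The median log2 fold change of the 24 was 0.88 against 0.01 over all genes. The 4 largest were Il6 at 5.33, Socs3, the feedback inhibitor of the same receptor chain, at 3.78, the kinase Jak2 at 2.91 and Nfkbiz, an atypical IkB protein, at 2.89. Socs3 was at 17.1 and 14.3 CPM in control medium, 19.6 and 17.5 in 67NR medium and 211 and 224 CPM in 4T1 medium, a pattern in which the 4T1 libraries alone stood apart. Stat3 rose by 0.86 and the shared receptor chain Il6st by 0.78 on the log2 scale in 4T1 medium, and neither was called between 67NR and control (log2 fold changes 0.07 and -0.03). Il17rc fell by 0.42 in 4T1 medium, and Osm was at 0 in every library.

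In 67NR medium against control, where 13% of all genes tested were called higher, 8 of the 24 were higher. The median of the 24 was 0.18 against 0.00 over all genes. The largest were the receptors Il6ra (log2 fold change 0.79), Il1r1 (0.68), Lifr (0.62) and Il11ra1 (0.54). The count was 4 without control replicate 1, without control replicate 2 or without 67NR replicate 1. Il6 stood at 1.82 and 1.93 CPM in control and 1.48 and 1.17 CPM in 67NR medium and was not called there.

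Of 27 acute-phase genes, among them known targets of C/EBP beta and delta, 15 were tested. Of these, 8 (Saa1, Saa2, Saa3, Hp, Hpx, Orm3, Serpina3n and Itih4) passed the filter on low counts only through the 4T1 libraries, so that a higher level there was built into their being tested, and their calls are not counted here. The other 7, Lcn2, Cp, C3, C4b, Serpina3g, Lbp and Il1rn, reached the filter without the 4T1 libraries. In 4T1 medium against control, where 19.9% of all genes tested were called higher, all 7 were higher. Among them were Lcn2, the iron-scavenging lipocalin, at a log2 fold change of 10.38, C3 at 7.36, Cp at 2.91 and Il1rn at 1.24. In 67NR medium against control, where 13% of all genes tested were called higher, 5 of the 7 were higher. These were C4b at a log2 fold change of 1.62, Cp at 1.34, C3 at 1.19, Il1rn at 0.93 and Lbp, whose call did not hold without either control library, without 67NR replicate 2, or with DESeq2 or limma-voom. Cp, the gene of ceruloplasmin, rose from 199 and 194 CPM in control to 498 and 497 CPM in 67NR and to 1389 and 1557 CPM in 4T1 medium. Counts of the Saa, Orm and Serpina3 families are uncertain, since near-identical copies share reads.

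RefSeq promoter windows were matched for 21 of the 27 acute-phase genes, and 13 of the 21 held the C/EBP core TTGCNNAA on either strand. By window the share was 54.2% of 24, against 10.8% of all windows, with a median GC content of 49.3% against 52.7%. Some genes of the list are known as C/EBP targets, so the larger share is no independent result. No test set the core against the calls, since 8 of the 15 genes tested passed the filter only through the 4T1 libraries. The stretches below show the match nearest to the start of the gene, core in capitals (GRCm38.p6, each 5′ to 3′ on the strand of its gene). They are given for Il6 and for the 7 core genes called higher in 4T1 medium, a choice for display. Of these, Saa1, Saa2, Saa3 and Orm3 were tested only through the 4T1 libraries. The call of Orm3 was lost without control replicate 1 and with DESeq2. Serpina3n, Serpina3g, Itih4 and Il1rn were called higher too, and their windows lacked the core. The core was also found in Hpx, not called against control, and in 5 genes not tested (Saa4, Orm2, Serpina1a, Fga and Fgb).

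Saa1 chr7:46743135-46743182 (minus strand): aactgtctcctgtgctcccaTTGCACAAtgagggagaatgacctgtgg
Saa2 chr7:46751630-46751677 (plus strand): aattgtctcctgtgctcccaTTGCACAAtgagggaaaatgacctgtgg
Saa3 chr7:46715748-46715795 (minus strand): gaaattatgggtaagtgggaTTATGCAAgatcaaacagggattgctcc
Lcn2 chr2:32387928-32387975 (minus strand): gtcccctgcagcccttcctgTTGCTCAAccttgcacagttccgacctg
Cp chr3:19957159-19957206 (plus strand): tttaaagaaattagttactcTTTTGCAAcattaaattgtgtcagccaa
Orm3 chr4:63356017-63356064 (plus strand): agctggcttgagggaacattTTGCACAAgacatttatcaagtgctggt
C3 chr17:57228154-57228201 (minus strand): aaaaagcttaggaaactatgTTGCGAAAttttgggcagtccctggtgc
Il6 chr5:30012966-30013013 (plus strand): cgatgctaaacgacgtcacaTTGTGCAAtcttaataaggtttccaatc

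Saa1 and Saa2 carry the same core with near-identical flanks, and Saa3, with a different core, was the serum amyloid with the most counts here. Saa1 had 13 and 13 counts and Saa2 had 11 and 22 in the 4T1 libraries, both with 0 in the other 4. Saa3 had 12964 and 15815 counts in 4T1 medium and 5 to 7 in every other library. A match is a description of letters and not of binding.

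Genes induced by ATF4, with which C/EBP gamma pairs, were all tested (18). In 4T1 medium against control, where 19.9% of all genes tested were called higher, 14 were higher and 4 not called. The median log2 fold change of the 18 was 0.46. In 67NR medium, where 13% of all genes were called higher and 14.6% lower, 1 was higher and 10 lower, with a median of -0.26. Cth, an enzyme of cysteine synthesis, was at 17.3 ± 0.918 CPM in control medium, 12.8 ± 0.277 in 67NR medium and 87.7 ± 1.33 in 4T1 medium. Shmt2, of mitochondrial one-carbon metabolism, was at 206 ± 1.53, 125 ± 4.79 and 258 ± 2.20 CPM, and its log2 fold change in 67NR medium was -0.72 (SE 0.06, edgeR adjusted p = 2.67e-06). Between the tumour media all 18 were higher in 4T1 medium, where 23.5% of all genes were called higher. Their median was 0.71, beside 0.22 for Cebpg. The call of Sesn2 was lost with DESeq2 and in a fit of the tumour media alone, among others. Those of Aldh18a1 and Pck2 were lost without 67NR replicate 2. The single higher gene in 67NR medium, Gpt2, was not called without any 1 of the control or 67NR libraries. Of the 10 lower there, Chac1, Mthfd2, Cth and Slc7a5 lost their call without 1 or more of those libraries.

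Cebpz was set beside 18 genes of nucleolar ribosome assembly, all tested. In 67NR medium against control all 18 were lower, with a median log2 fold change of -0.46 beside -0.31 for Cebpz, where 14.6% of all genes were called lower. The 4 largest were Nop56 at -0.76, Nop58 at -0.63, Nop2 at -0.61 and Ebna1bp2 at -0.60, box C/D and large-subunit factors among them. Of the 18 calls, those of Noc4l, Nop14, Pes1 and Wdr12 were lost without 67NR replicate 2. Those of Noc2l and Rrp1b were lost without control replicate 1 or 67NR replicate 1. Nop56 was at 96.7 and 98.8 CPM in control medium, 60.0 and 55.6 in 67NR medium and 148 and 133 CPM in 4T1 medium. In 4T1 medium against control the largest rises were Rrp1b at 1.02 and Noc3l, of the same protein family as Cebpz, at 0.57. The median was 0.32 and 14 were higher, where 19.9% of all genes were called higher. That count was 7 without control replicate 1 and 9 without control replicate 2, without 67NR replicate 1 or without 67NR replicate 2. Between the tumour media all 18 were higher in 4T1 medium, where 23.5% of all genes were called higher. The median was 0.81 beside 0.47 for Cebpz, and all 18 were higher under all 14 alternatives.

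**Figure D5:**
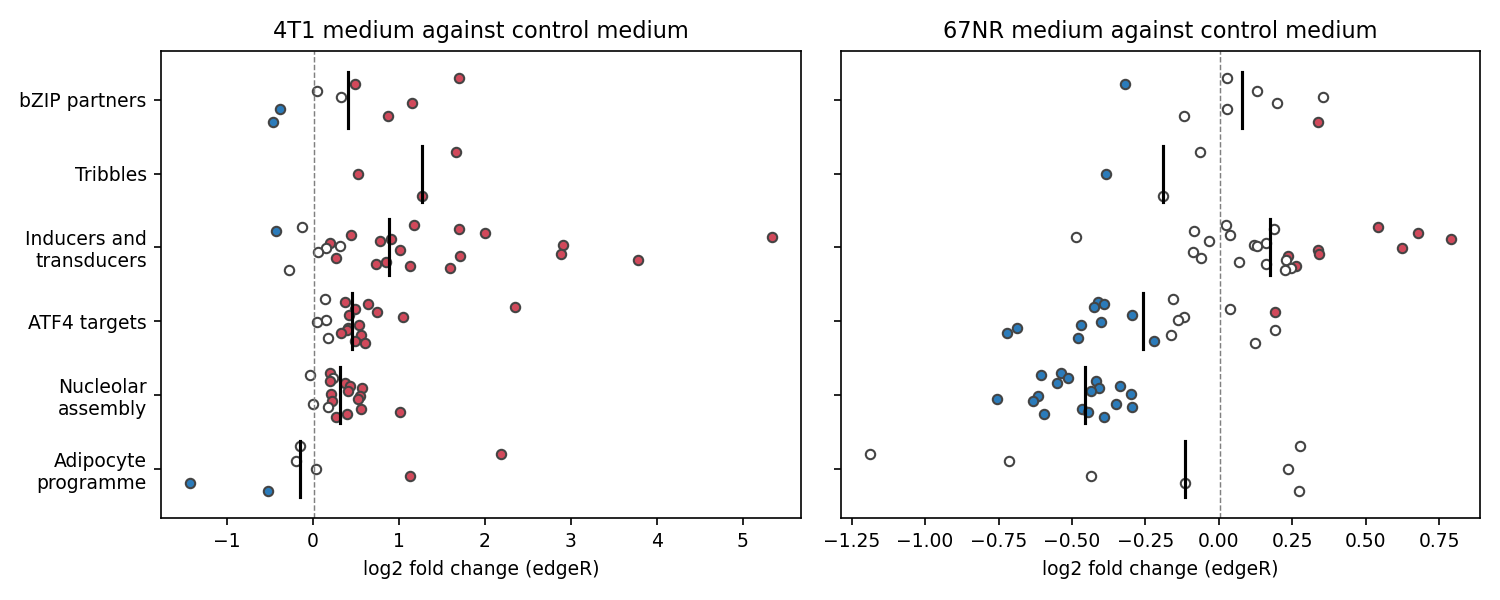
Log2 fold change (horizontal axis, own scale per panel) of the tested genes of 6 lists linked to C/EBPs in 4T1 (left) and 67NR medium (right) against control; each point is a gene, filled red or blue where called higher or lower, the black bar is the median of the list and the dashed line the median of all genes tested. Inducers and transducers reach 5.33 in 4T1 medium, and all 18 nucleolar genes lie below 0 in 67NR medium. Klf15, in the adipocyte row, was tested only through the 4T1 libraries.

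Gene programmes that C/EBPs drive in other lineages were scarce in these cells. Of 16 adipocyte genes 7 were tested, and Adipoq, Plin1, Cd36, Lep and Slc2a4 were at 0 in every library. Klf15 passed the filter only through the 4T1 libraries, with 27 and 24 counts there and 2 to 9 in the others, so its higher level there was built into its being tested. Klf5, at 6 to 12 counts per library, was close to the filter and was not called. Of the other 5, Lpl was higher and Pparg and Plin4 were lower in 4T1 medium against control. The shares over all genes tested were 19.9% higher and 19.2% lower. The call of Lpl was lost without any 1 of the control or 4T1 libraries and with DESeq2. Pparg, which C/EBP alpha and PPAR gamma keep switched on together in fat cells, was at 6.23 and 5.50 CPM in control medium, 7.97 and 6.28 in 67NR medium and 4.06 and 4.19 CPM in 4T1 medium. Its fall in 4T1 medium (log2 fold change -0.52, edgeR adjusted p = 0.0434) was lost without any 1 of the control or 4T1 libraries and with DESeq2 or limma-voom. In 67NR medium 0 of the 7 were called by edgeR, where 13% of all genes were called higher and 14.6% lower. At an unadjusted p under 0.05 the count was 1, and by DESeq2 or limma-voom it was 0. No share over all genes is given for these settings.

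Of 18 granulocyte and macrophage genes 4 were tested, and Mpo, Elane, Ctsg, S100a8, S100a9, Adgre1 and Spi1 were at 0 in every library. Of those tested, Csf1r and Cd68 were called in no comparison. Lyz2, a lysozyme of myeloid cells, was at 4.62 and 5.87 CPM in control medium, 9.13 and 8.86 in 67NR medium and 1.89 and 2.18 CPM in 4T1 medium. Its log2 fold change was 0.80 in 67NR medium against control (edgeR adjusted p = 0.00256), a call lost without control replicate 1 (edgeR adjusted p = 0.055), and -1.33 in 4T1 medium against control (edgeR adjusted p = 0.000248). Camp, a neutrophil granule gene that was tested only through the 4T1 libraries, had 11 and 18 counts in 4T1 medium against 1 and 1 in control and 0 in both 67NR libraries.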

How the data were processed

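Per the labels' protocols, directional poly(A) libraries were prepared from 500 ng of RNA. What the authors deposited are raw counts by gene symbol. The unfiltered table was used here, and the filtered one repeats its values for 14629 genes. Per the submitters' processing notes, Subread and the mm10 build were used, with DESeq2 1.32.0. Neither aligner nor strand setting is given in the sources used here.

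In edgeR 4.0.16, filterByExpr (at least 10 counts, and 15 in total) kept 15055 genes, and trimmed-mean (TMM) scaling was applied. CPM are counts over the scaled library total of the tested genes. All 6 libraries entered 1 quasi-likelihood fit with 3 residual degrees of freedom, and p-values were adjusted by Benjamini-Hochberg over all of them, with calls at 0.05. Each SE was taken from the fold change and its F value, as |log2 fold change| divided by sqrt(F). No 2 libraries of a medium held identical values. Fits used R 4.3.3, figures Python 3.11.15 with matplotlib 3.10.9, and the code was tested on simulated data. Exon lengths and positions come from GENCODE M21 (GRCm38, the assembly of mm10), matched for 14747 of the tested genes, and promoter windows of 300 bases from RefSeq (GRCm38.p6), matched for Cebpa, Cebpb and Cebpg.

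The members, lists and tests were chosen with earlier results of these data known. Of each list, up to 4 called genes with the largest change and at least 5 CPM were named, plus a fixed set, of which the text gives part. Other genes were named after their values were seen, among them all genes of counts of 5 or fewer. The alternatives changed the scaling (DESeq2 size factors or plain library totals), the filter (none, or the authors' filtered genes), the libraries (leave-one-out, or 2 groups alone), the model (replicate block) and the test (DESeq2 1.42.0 or limma-voom of limma 3.58.1). RefSeq lengths, marker sums without their largest gene and the split of lists by the medium through which a gene passed the filter (which asks for its minimum in 2 libraries) were added after the data had been seen.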

Additional observations from a re-analysis of the deposited data

How the results depend on the processing

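Of 210 member fold changes recomputed under 14 alternatives, 191 kept their call and none reversed among those called, and 112 of 126 counts stayed within 1.5 times. Every call of Cebpb and Cebpd in 4T1 medium held. With DESeq2, Cebpa lost both calls (log2 fold change 0.70 in 67NR against control, -0.67 in 4T1 against 67NR) and Cebpg its call between tumour media (0.20), which left 0 members higher in 67NR medium against control and 0 lower in 4T1 against 67NR medium. In fits of 2 groups alone, Cebpg lost that call (0.19) and was called lower in 67NR against control (-0.16, edgeR adjusted p = 0.0418).

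Leaving out each library in turn, Cebpa ranged from 0.48 to 0.92 in 67NR against control and from -0.78 to -0.55 in 4T1 against 67NR medium. In 67NR against control, Cebpd ranged from -0.41 to -0.23, Cebpz from -0.34 to -0.29 and Cebpg from -0.22 to -0.12, and Cebpg ranged from 0.19 to 0.25 in 4T1 against 67NR medium. The counts ranged from 0 to 1 for members higher and from 0 to 3 for members lower in 67NR against control, and from 0 to 1 for members lower in 4T1 against 67NR medium. Genes called in 67NR against control numbered 4150 in all and ranged from 2207 to 5358, with 2207 to 2437 where a control or 67NR library was left out. Members higher in 67NR against control were 0 without control replicate 1, 67NR replicate 1 or 67NR replicate 2, and members lower were 0 without control replicate 2 or 67NR replicate 2.

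Replicate numbers showed little sign of pairing the libraries: differences between replicates correlated at -0.04, 0.01 and 0.07 across genes between the 3 pairs of media. With 2 libraries per medium, these values cannot exclude a pairing. With the replicate number as a block, genes called were 6057, 4382 and 6668 in 4T1 against control, 67NR against control and 4T1 against 67NR. Without the block they were 5888, 4150 and 6531. No member's call changed with the block (Cebpb in 4T1 medium against control 2.31). Cebpa had 103 to 219 counts per medium, and Cebpe, at 0, could not be tested.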
